A study of Mus musculus with 12 samples.

Results

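The genes described here are those encoded by the mitochondrial genome, taken as the rows of the deposited expression table whose symbol starts with mt- and whose chromosome is MT. They number 37 of 55415 entries, of which 13 code for proteins, 2 for ribosomal RNAs and 22 for transfer RNAs, and no other row of the table lies on that chromosome. RNA was sequenced from tumours of CT26, a mouse colon carcinoma line that grows in BALB/c mice. There were 4 groups of 3 libraries: mice given Complex 1 and radiation (the combination), radiation without the compound, Complex 1 without radiation, and an untreated control group. Complex 1 is, going by the title of the series, a platinum complex activated by X-rays, and its name has nothing to do with complex I of the respiratory chain. The doses, the times, the age and sex of the mice and whether a sampled tumour lay in the irradiated field are stated neither in the labels nor in the deposited table. All groups carry the same tumour line, labelled WT, and each library is of bulk tumour tissue, so fewer cells of a type and less RNA per cell cannot be told apart. The labels number the libraries without saying that they came from separate mice, so p-values measure the spread between these libraries, which may be technical.

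Mitochondrial DNA is a small circular genome present in many copies per cell. It is transcribed from both strands into long precursors, which are cut largely at the tRNAs that stand between the genes. The protein genes encode subunits of respiratory complexes I (the mt-Nd genes), III (mt-Cytb) and IV (mt-Co1 to mt-Co3) and of ATP synthase (mt-Atp6 and mt-Atp8), and the rRNAs and tRNAs serve the ribosome that translates them inside the organelle. All other proteins of mitochondria are encoded in the nucleus. Stretches of mitochondrial DNA have also been inserted into nuclear chromosomes, where they are annotated as pseudogenes.

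One such insertion bears on most of what follows. A run of the mitochondrial genome from position 6381 to position 11042 (mm39, 4662 bases) holds 6 protein genes and 5 tRNA genes entire. Bounded by the annotated ends of its outer copies, it stands in the same order on the minus strand of chromosome 1 between 24650616 and 24655278 (4663 bases). It is annotated there as 7 pseudogenes: Gm29216 (the end of mt-Co1), Gm28661 (mt-Co2), Gm10925 (mt-Atp6), Gm28437 (mt-Co3), Gm28438 (mt-Nd3), Gm10222 (mt-Nd4l) and Gm28439 (the start of mt-Nd4). Between the transcripts of GENCODE M21, the aligned bases of mt-Co2, mt-Atp6, mt-Co3, mt-Nd4l and mt-Nd4 differed from their chromosome 1 copies at 0 positions. That of mt-Nd3 differed at 1 position, T3C, counted from 1 at the first base of the gene, with the mitochondrial base first. The starts of both are shown because this base is the sole difference over 345 aligned bases; it stands in capitals.
mt-Nd3, bases 1 to 60: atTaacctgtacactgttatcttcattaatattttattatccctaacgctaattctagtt
Gm28438, bases 1 to 60: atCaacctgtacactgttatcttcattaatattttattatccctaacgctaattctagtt
The annotated copy of mt-Co1 aligns to its last 492 bases and differs at 6 of them (T1056A, C1057T, A1059G, A1060G, C1062A and A1066T). All 6 lie next to the annotated start of the copy, so the copied run may begin after them and its exact first base is uncertain. The next sequences show this stretch with the differing bases in capitals.
mt-Co1, bases 1054 to 1113: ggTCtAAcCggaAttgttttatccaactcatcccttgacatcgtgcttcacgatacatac
Gm29216, bases 1 to 60: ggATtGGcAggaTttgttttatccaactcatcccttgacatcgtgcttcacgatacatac
The gene of mt-Nd4l is printed whole as the extreme case: each base is also in the run on chromosome 1. The closing TAA, in capitals, lies beyond the end annotated for Gm10222. It falls in the bases that overlap mt-Nd4, which are repeated in Gm28439.
mt-Nd4l: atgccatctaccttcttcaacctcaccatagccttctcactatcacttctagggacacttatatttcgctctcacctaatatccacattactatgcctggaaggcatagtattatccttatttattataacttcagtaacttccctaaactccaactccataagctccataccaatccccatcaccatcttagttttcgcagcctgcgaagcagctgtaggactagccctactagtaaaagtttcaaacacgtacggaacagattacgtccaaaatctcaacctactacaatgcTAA
No annotated transcript of GENCODE M21 matches mt-Atp8 beyond its overlap with mt-Atp6, which is also in Gm10925. mt-Atp8 and several tRNA genes lie inside the copied run, however. Their presence on chromosome 1 is inferred from spacing, since no annotated copy of these tRNAs or of the rest of mt-Atp8 could be aligned. The space between the copies of mt-Co2 and mt-Atp6 (233 bases) is close to that between the genes themselves (230 bases). The sequence of mt-Atp8 is shown with the 43 bases that overlap mt-Atp6 in capitals, since counts in the overlap cannot be assigned to one of these genes.
mt-Atp8: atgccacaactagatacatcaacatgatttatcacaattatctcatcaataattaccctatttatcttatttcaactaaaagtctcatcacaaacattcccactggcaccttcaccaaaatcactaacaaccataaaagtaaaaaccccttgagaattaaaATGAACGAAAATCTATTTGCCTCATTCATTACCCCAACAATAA
These sequences are from the GENCODE M21 transcripts (GRCm38), and the coordinates are those of the deposited table. The 6 genes wholly inside the run (mt-Co2, mt-Atp8, mt-Atp6, mt-Co3, mt-Nd3 and mt-Nd4l) are called the genes of the copied run from here on.

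The libraries held 15601468 to 19112042 counts. Control replicate 2 stood apart in Xist, the RNA that silences an X chromosome in female cells, with 0.02 FPKM (counts scaled to library size and to exonic gene length) against 9.20 to 14.2 FPKM in the other 11 libraries. Leaving it out cut the genes called with Complex 1 against control to 4, from 111 with all libraries. Of 5 carcinoma or epithelial markers (Krt8, Krt18, Krt19, Epcam and Cdh1), 1 passed the filter on low values, and their sum was 3.53 to 8.30 FPKM over all libraries. Summed neutrophil markers reached 245 to 408 FPKM with the combination, 8.90 to 33.6 FPKM with radiation, 87.4 to 196 FPKM with Complex 1 and 10.35 to 18.2 FPKM in control, with none of the 6 at 0 in all libraries. The 8 macrophage markers summed to 2076 to 2202, 2064 to 2242, 1373 to 1521 and 981 to 1169 FPKM in the same order of groups.

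Of the 37 mitochondrial genes, 16 passed the filter on low values (at least 1 FPKM in at least 3 of 12 libraries): all 13 protein genes, both rRNAs and 1 tRNA. By length-scaled level, mt-Co1, the catalytic subunit of cytochrome oxidase, stood first, with 5798 ± 763 FPKM with the combination, 7509 ± 1332 with radiation, 6659 ± 982 with Complex 1 and 7236 ± 375 in control (SD, n = 3 each). mt-Cytb, the complex III subunit, came next with 3098 ± 404, 4012 ± 905, 3752 ± 526 and 3428 ± 89.6 FPKM in the same order. In control tumours the complex I subunits outside the copied run followed, from mt-Nd1 (2969 ± 362 FPKM) through mt-Nd2 (1405 ± 178), mt-Nd5 (1168 ± 111) and mt-Nd6 (1021 ± 180) to mt-Nd4 (799.6 ± 53.7). From mt-Nd2 down, the libraries of each gene overlapped those of the next, so these ranks are not separated. mt-Nd6, the sole protein gene on the other strand, overlaps mt-Nd5 by 14 bases, and as the strand setting of the counting is not given, reads there cannot be told apart.

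The 6 genes of the copied run were the lowest protein genes in control tumours. mt-Co2, the oxidase subunit that takes electrons from cytochrome c, averaged 74.3 ± 8.07 FPKM there, mt-Atp6, a proton-channel subunit of ATP synthase, 27.7 ± 0.92 FPKM and mt-Co3, a core oxidase subunit, 26.8 ± 0.36 FPKM. mt-Nd4l, mt-Atp8 and mt-Nd3 averaged 5.65 ± 1.07, 5.45 ± 2.81 and 3.07 ± 1.03 FPKM. No library of any group had one of these 6 genes at the level of mt-Nd4, the lowest protein gene outside the run. As 31-base sequences, 100% of mt-Co2, 99.5% of mt-Atp6, 99.9% of mt-Co3, 98.1% of mt-Nd3 and 98.9% of mt-Nd4l also occur in annotated nuclear copies. The shares were 63.6% of mt-Co1, 62.8% of mt-Nd4, 16.8% of mt-Nd5, 13.5% of mt-Nd2, 6.55% of mt-Cytb and 0% of mt-Nd1. A nuclear gene counted as a copy if it shared at least 50 such sequences with a mitochondrial gene. For mt-Nd6 the share was 0% by this limit, although 36 of its 489 sequences (7.36%) occur in another locus. No label or header says how reads that fit several places were counted, and the part of such reads in these levels was not tested.

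**Figure D1:**
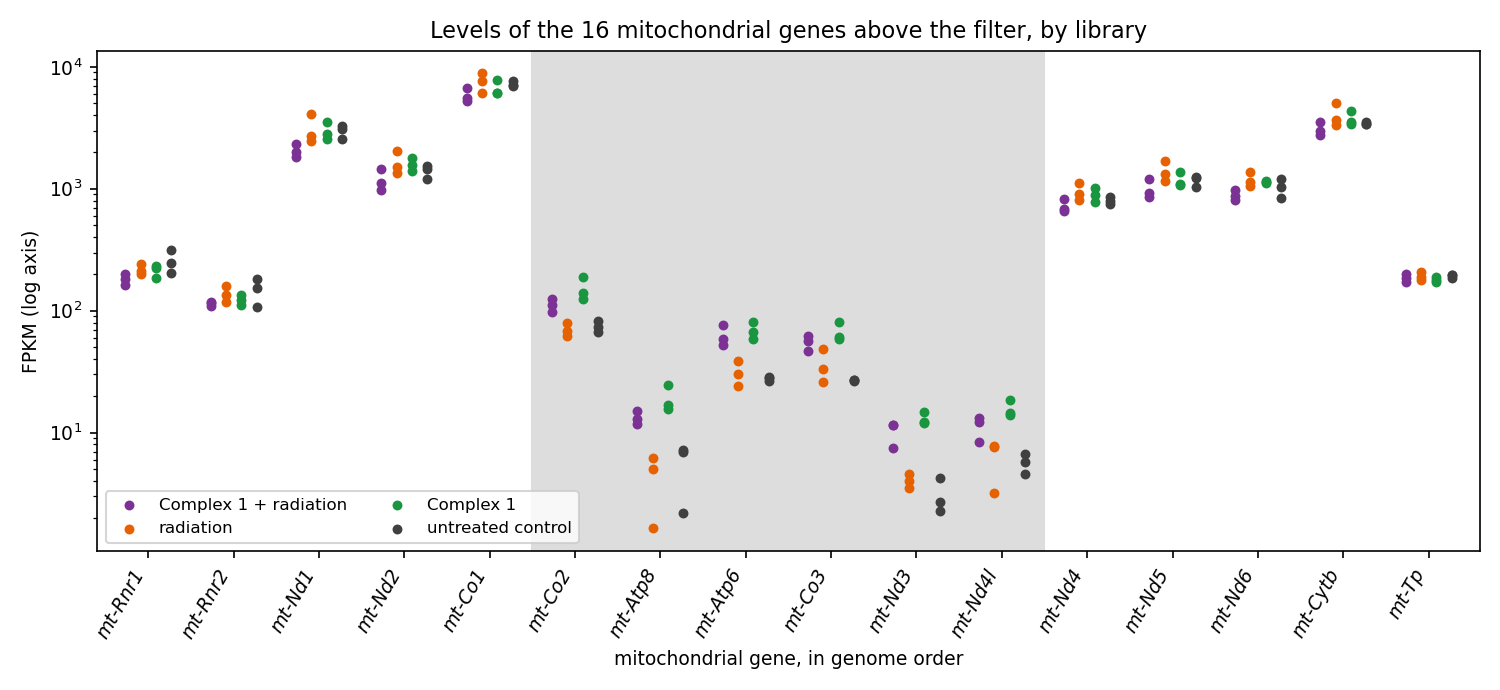
Level of each of the 16 mitochondrial genes above the filter, in FPKM on a log axis, with genes in genome order, 1 point per library and groups in colour; the shaded genes are those of the copied run. The shaded genes sit below all other protein genes in every library, and within the shading the combination and Complex 1 points lie high.

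The share of RNA from the mitochondrial genome as a whole was lowest on average with the combination. Its 37 genes held 1.74%, 1.86% and 2.25% of all counts with the combination, 2.48%, 3.13% and 2.14% with radiation, 2.74%, 2.16% and 2.19% with Complex 1, and 2.21%, 2.53% and 2.39% in control. Radiation replicate 2 was the highest library, and 2 of the 3 combination libraries were the lowest. Scaled by TMM (edgeR's trimmed mean of library ratios), the combination stood at 0.794 of control (19196 ± 2598 against 24179 ± 1638 CPM, counts scaled to library size, SD, n = 3 each), and no library overlapped. The exact two-sided permutation test gave p = 0.1, the smallest that 3 against 3 allows. By library totals alone the ratio was 0.821 and 1 combination library overlapped the controls (exact permutation p = 0.2). The combination stood at 0.745 of radiation (exact permutation p = 0.2) and 0.812 of Complex 1 (p = 0.3), radiation at 1.07 of control (p = 0.8) and Complex 1 at 0.978 of control (p = 0.8), all with overlapping libraries.

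**Figure D2:**
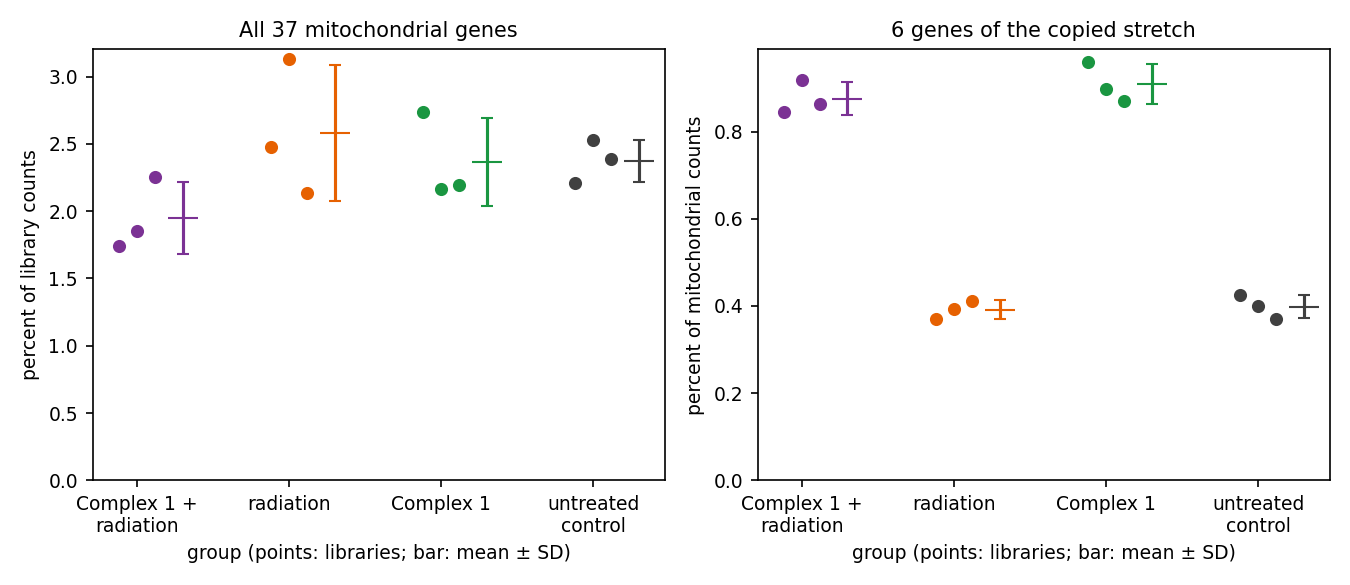
Left, percent of all counts held by the 37 mitochondrial genes; right, percent of the mitochondrial counts held by the 6 genes of the copied run. Points are libraries and bars the mean ± SD of 3; on the right the combination and Complex 1 libraries (0.846% to 0.960%) stand clear of the radiation and control libraries (0.370% to 0.425%).

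The make-up of the counts assigned to mitochondrial genes differed between libraries with and without the compound. These are counts as the authors assigned them, and the near-identical chromosome 1 copies leave the origin of those in the copied run uncertain. The 6 genes of the copied run held 0.846%, 0.918% and 0.863% of the mitochondrial counts with the combination and 0.370%, 0.394% and 0.412% with radiation. They held 0.960%, 0.897% and 0.870% with Complex 1 and 0.425%, 0.401% and 0.371% in control. All 6 libraries with the compound exceeded all 6 without it, and the spread within each group was small beside that gap. The ratio was 2.24 for the combination over radiation and 2.28 for Complex 1 over control, each with exact permutation p = 0.1, the smallest possible. It was 0.983 for radiation over control (exact permutation p = 0.7).

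In tumours given Complex 1 without radiation, 5 of the 6 genes of the copied run rose and no other mitochondrial gene passed the test. mt-Nd3, a core subunit of complex I, had 14.7, 12.2 and 11.9 FPKM with Complex 1 against 4.23, 2.71 and 2.27 FPKM in control. Its log2 change was 2.04 ± 0.26 (SE, edgeR adjusted p = 0.00736), a 4.12-fold rise resting on 66 to 93 against 14 to 27 counts per library. mt-Co2 had 188, 141 and 124 FPKM with Complex 1 against 72.9, 82.9 and 66.9 FPKM in control. In both genes each treated library lay above each control library. For mt-Atp6 the levels were 81.4, 59.1 and 67.1 FPKM with Complex 1 and 26.8, 28.6 and 27.9 FPKM in control. Levels of mt-Co3 were 81.2, 58.8 and 61.4 FPKM with Complex 1 and 27.0, 26.4 and 26.9 FPKM in control. The control libraries of mt-Atp6 and mt-Co3 were nearly level with one another, and Complex 1 replicate 1 was the highest of the treated ones for both. mt-Nd4l, a small membrane subunit of complex I, had 18.4, 14.03 and 14.4 FPKM with Complex 1 against 5.70, 6.69 and 4.56 FPKM in control. mt-Atp8, a small subunit of ATP synthase, had 24.6, 15.7 and 16.8 FPKM with Complex 1 against 7.22, 6.93 and 2.21 FPKM in control. Here too the groups did not overlap, although the 8 to 91 counts behind mt-Atp8 are few.

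By the quasi-likelihood test of edgeR, with p-values adjusted by Benjamini-Hochberg over the 13668 genes tested, 5 of the 16 mitochondrial genes above the filter rose with Complex 1 and 0 fell. Of all genes tested, 0.717% rose, 0.0951% fell and 0.812% thus changed. The log2 changes (± SE) were 1.00 ± 0.15 for mt-Co2 (adjusted p = 0.0107), 1.29 ± 0.17 for mt-Atp6 (adjusted p = 0.00736), 1.30 ± 0.19 for mt-Co3 (adjusted p = 0.0110) and 1.43 ± 0.30 for mt-Nd4l (adjusted p = 0.0463). That of mt-Atp8 was 1.77 ± 0.40 with an adjusted p of 0.0648, which missed the threshold of 0.05. The median over the 6 genes was 1.37, against 0.01 over all genes tested. Without control replicate 2, the library that stood apart in Xist, 0 of the 16 passed, with adjusted p = 0.0512 for mt-Co2, mt-Atp6 and mt-Nd3 and a median of 1.45 over the 6 genes. mt-Nd4l passed under 6 of the 20 settings run, the main one not counted.

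Outside the copied run, the changes with Complex 1 were small. mt-Nd1 had a log2 change of -0.03 ± 0.17, mt-Nd5 of -0.01 ± 0.15 and mt-Cytb of 0.10 ± 0.14, and the median over the 7 protein genes was 0.10. mt-Co1 (-0.15 ± 0.14) and mt-Nd4 (0.13 ± 0.13), which lie partly inside the run, were near 0 as well. The rRNAs mt-Rnr1 and mt-Rnr2 had changes of -0.28 ± 0.14 and -0.30 ± 0.15 that missed the threshold (adjusted p = 0.451 and 0.466). Adjusted p-values of the 7 protein genes ran from 0.714 to 0.994. The neutrophil marker sum given above was also higher with Complex 1, with 4 of 5 tested markers rising, and its part in the changes was not tested.

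**Figure D3:**
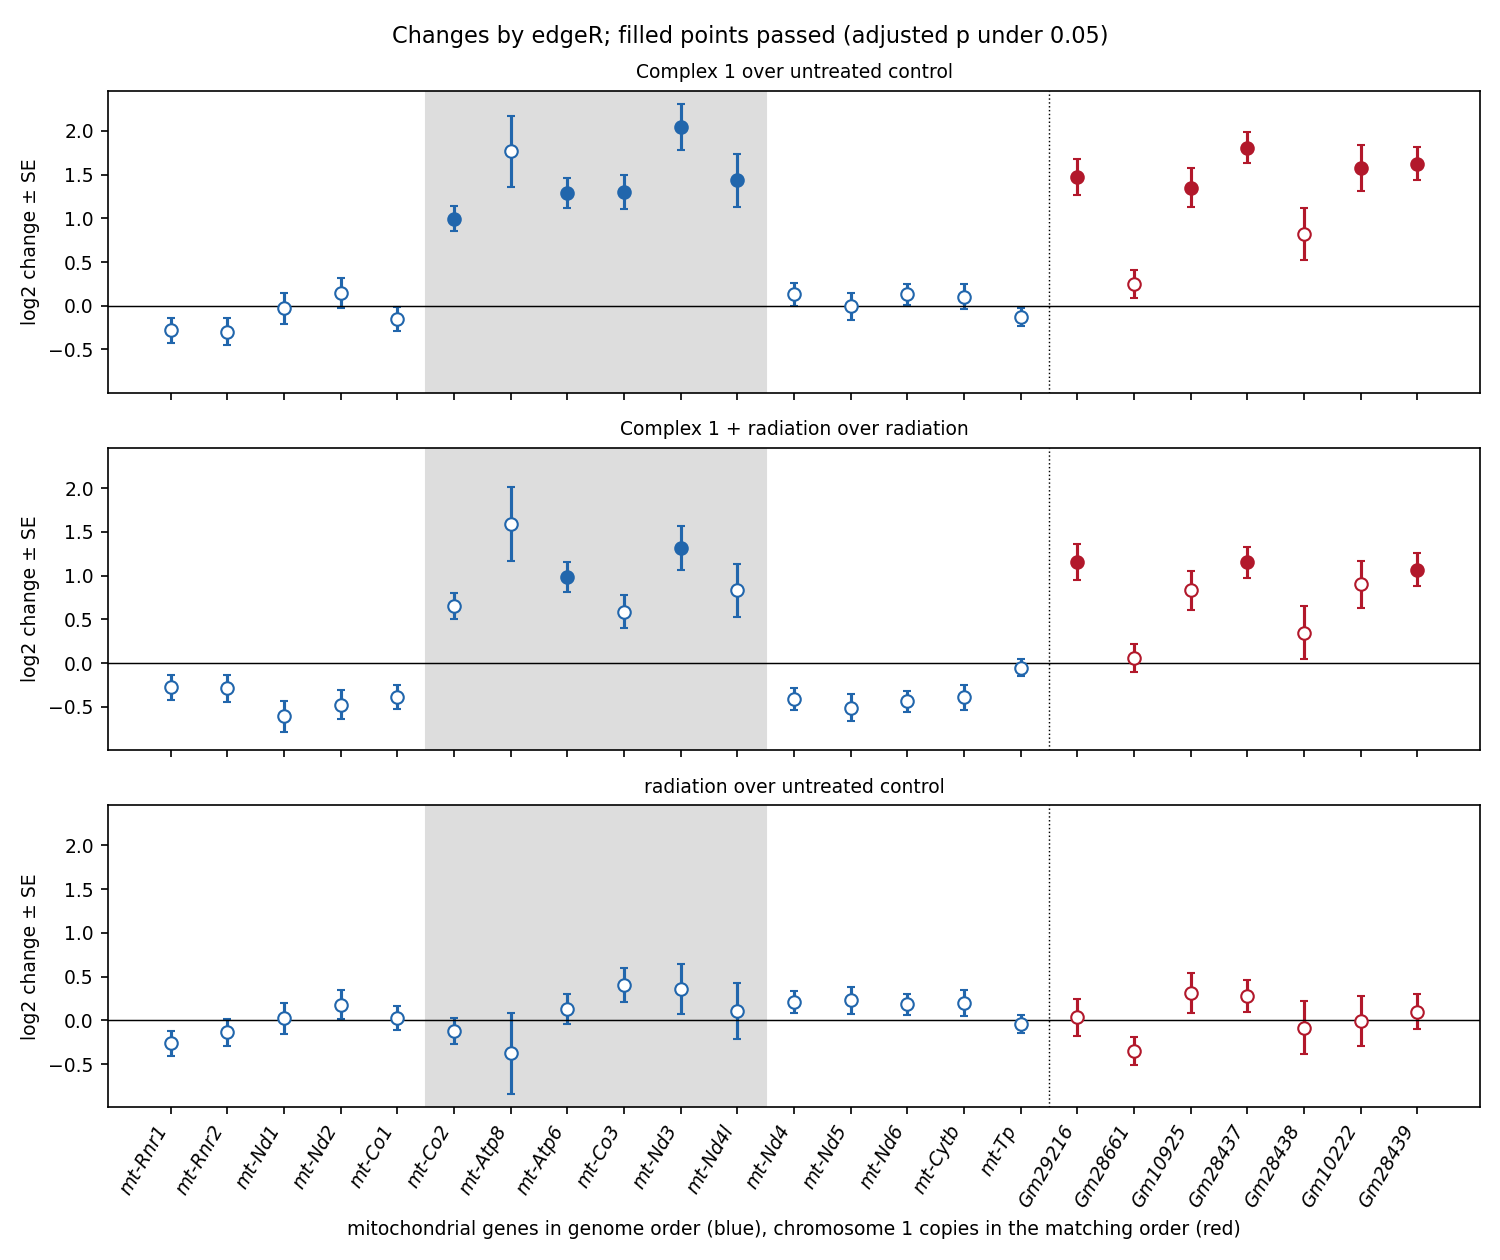
Change on the log2 scale with its SE for each mitochondrial gene in genome order (blue) and each chromosome 1 copy in matching order (red), for Complex 1 over control, the combination over radiation, and radiation over control; filled points passed (edgeR adjusted p under 0.05). The shaded genes of the copied run lie above 0 in the upper panels, while no point is filled in the lowest.

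The chromosome 1 copies moved with the compound too. With Complex 1, 5 of the 7 rose against control and 0 fell: Gm28437 by 1.81 ± 0.18 on the log2 scale (adjusted p = 0.00171), Gm28439 by 1.62 ± 0.19 (adjusted p = 0.00484), Gm10222 by 1.58 ± 0.26 (adjusted p = 0.0148), Gm29216 by 1.48 ± 0.21 (adjusted p = 0.00858) and Gm10925 by 1.35 ± 0.23 (adjusted p = 0.0151). The others were Gm28438 with 0.82 ± 0.30 (adjusted p = 0.273) and Gm28661 with 0.24 ± 0.16 (adjusted p = 0.575). At the ends of the run the copies and their genes differed: Gm29216 and Gm28439 rose, while mt-Co1 and mt-Nd4, whose parts they copy, had the small changes given above. Without control replicate 2, 2 of the 7 passed, with a median log2 change of 1.504 against 1.477 with all libraries.

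Counts were divided unevenly between a mitochondrial gene and its copy. Of the counts assigned to either, mt-Co1 held 99.8% with the combination and with Complex 1 and 99.9% with radiation and in control, although its chromosome 1 copy, Gm29216, repeats 492 of its 1545 bases. The split was more even where the copy is entire. mt-Co3 held 58.9% ± 0.69 with the combination, 67.6% ± 2.9 with radiation, 58.0% ± 1.4 with Complex 1 and 66.2% ± 1.7 in control (SD, n = 3 each). mt-Atp6 held 41.7% ± 2.4, 38.9% ± 1.8, 41.1% ± 1.3 and 42.0% ± 2.6 in the same order of groups, and mt-Nd4l 63.9% ± 1.0, 63.4% ± 10.1, 60.7% ± 3.2 and 63.3% ± 2.4. For mt-Atp6 and mt-Nd4l the groups overlapped. mt-Nd3 held the smallest part, with 25.7% ± 2.0, 16.2% ± 6.7, 23.4% ± 1.5 and 12.4% ± 4.2. mt-Co2 held 62.0% ± 3.0, 52.2% ± 2.5, 60.7% ± 1.9 and 48.4% ± 3.5, so that its libraries with the compound all lay above those without it. For mt-Co3 it was the reverse: its libraries with the compound all lay below those without it. Because 1 base or none separates these pairs, the origin of a count is uncertain, and the level of each gene of the copied run and of each copy is that of the authors' assignment.

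**Figure D4:**
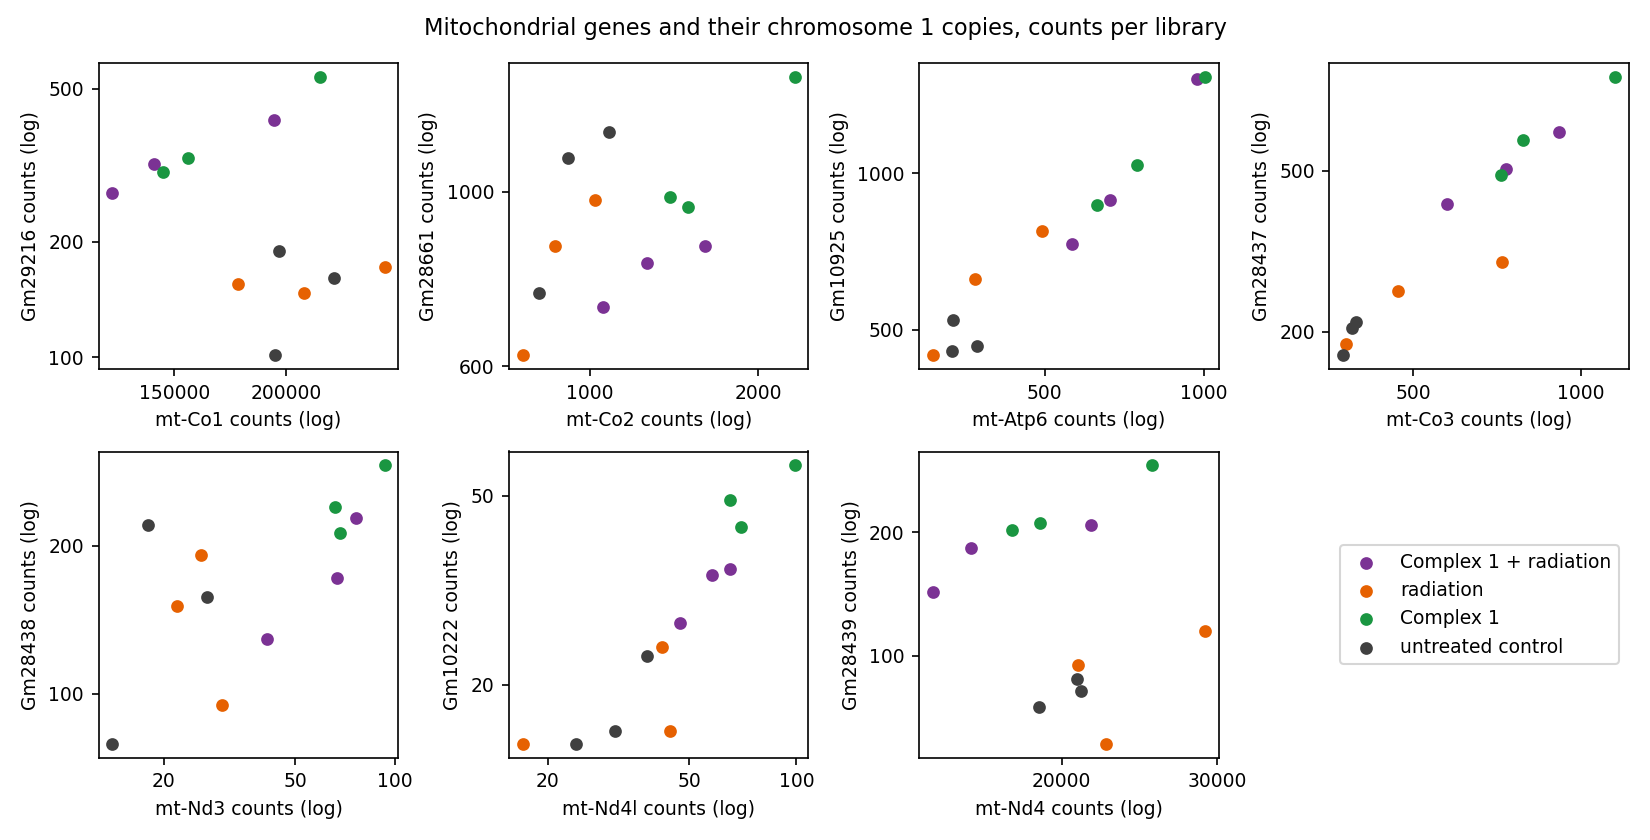
Counts of each chromosome 1 copy (vertical, log axis) against those of the mitochondrial gene it copies (horizontal, log axis), 1 point per library. For mt-Atp6, mt-Co3 and mt-Nd4l the points run along a rising diagonal with Complex 1 and combination libraries mostly at the top, while for mt-Co1 and mt-Nd4 the copy is higher with the compound and the counts of the mitochondrial gene overlap between groups.

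Copies on other chromosomes held few counts. Of 13 nuclear genes with at least 50 shared 31-base sequences, the 10 with most counts were the 7 on chromosome 1 (355 to 11216 counts over all libraries), Gm13340 on chromosome 2, a copy of mt-Co1 (434 counts), Gm13341 on chromosome 2, a copy of mt-Co2 (51 counts), and Gm4076 on chromosome 13, a copy of part of mt-Nd5 (15 counts). Gm13340 differs from mt-Co1 at 37 of 1545 bases, and its log2 change with Complex 1 was 0.89 ± 0.28 (adjusted p = 0.184).

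Some nuclear genes that are not among these copies but share nearly all their sequence with another locus also rose with the compound. Genes for mitochondrial proteins were not removed from these sets. Of those with at least 98% of their 31-base sequences in another locus, 151 were tested. With Complex 1 against control 7 of them rose and 0 fell, with a median log2 change of 0.32, and with the combination against radiation 6 rose and 0 fell, with a median of 0.32. At a limit of at least 90% (357 genes) the medians were 0.21 and 0.19, with 13 rising and 0 falling in each of these comparisons. Of all genes tested, 0.717% and 0.615% rose in them. With radiation against control the medians were -0.09 and -0.08. There 0 rose and 8 fell of the 151, and 3 rose and 17 fell of the 357, where 5.86% of all genes tested fell. Of the 9628 nuclear genes with under 10% shared sequence, the median was 0.00 with Complex 1, and 48 rose and 11 fell. Without control replicate 2, 0 of the 151, 1 of the 357 and 1 of the 9628 rose with Complex 1 against control, with medians of 0.28, 0.22 and 0.00. These lists were drawn up after the data had been seen, and the part of shared sequence in the changes of the copied run was not tested.

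**Figure D5:**
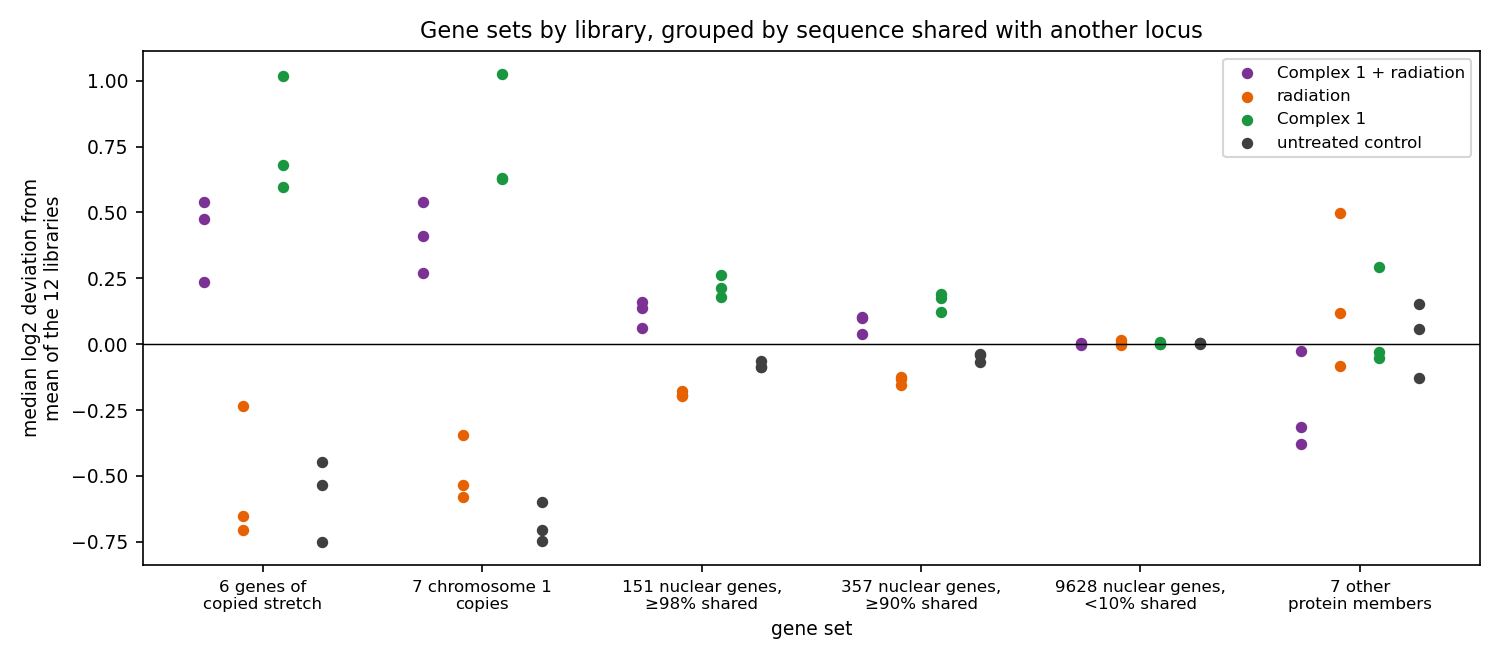
Median log2 deviation of each gene set from its mean over the 12 libraries, 1 point per library, for sets that differ in how much sequence they share with another locus. The copied run, its chromosome 1 copies and the near-identical nuclear genes are above 0 in all 6 libraries with Complex 1 and below 0 in all 6 without it. The 7 other mitochondrial protein genes follow no such split. The 9628 genes with little shared sequence lie close to 0, but the scaling places the bulk of genes there, so they are no contrast.

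In irradiated tumours 2 genes of the copied run rose with the compound. mt-Atp6 had 52.1, 58.3 and 75.7 FPKM with the combination against 30.2, 38.4 and 24.2 FPKM with radiation, a log2 change of 0.99 ± 0.17 (edgeR adjusted p = 0.0193). mt-Nd3 had 7.44, 11.5 and 11.6 FPKM with the combination against 3.53, 4.55 and 4.01 FPKM with radiation, a log2 change of 1.31 ± 0.26 (edgeR adjusted p = 0.0345). The groups did not overlap in either gene. Of 16 genes, 2 thus rose and 0 fell, where 0.615% of all genes tested rose and 0.0366% fell (0.651% in all). An unadjusted p under 0.05 was reached by 13 of 16, 6 with positive and 7 with negative changes, and by 10.3% of all genes tested. Mitochondrial genes share precursors and were read in the same libraries, so these are not independent results. Their summed share overlapped between the groups (exact permutation p = 0.2). Of the rest of the copied run, mt-Atp8 (1.59 ± 0.43, adjusted p = 0.169), mt-Nd4l (0.83 ± 0.30, adjusted p = 0.367), mt-Co2 (0.66 ± 0.15, adjusted p = 0.0768) and mt-Co3 (0.59 ± 0.19, adjusted p = 0.294) had positive changes that missed the threshold. The 7 protein genes outside it had negative ones, from -0.61 for mt-Nd1 to -0.39 for mt-Cytb, with adjusted p-values of at least 0.181. DESeq2 called 6 of the 16, where it called 1.44% of all genes. No gene passed without combination replicate 2 or 3 or without radiation replicate 1 or 3, and 1 passed without radiation replicate 2, Complex 1 replicate 2 or control replicate 2. On chromosome 1, Gm28437 rose by 1.15 ± 0.17, Gm29216 by 1.16 ± 0.21 and Gm28439 by 1.07 ± 0.19 (adjusted p = 0.00852, 0.0216 and 0.0220), 3 of the 7 copies. All 5 tested neutrophil markers were also higher with the combination than with radiation, and their part was not tested.

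With radiation and no compound, no mitochondrial gene passed the test, where 13.2% of all genes tested did. At an unadjusted p under 0.05 the count was also 0 of 16, against 28.4% of all genes tested, and DESeq2 called 0, where it called 16.2% of all genes. The largest positive change was that of mt-Co3, with 33.4, 48.7 and 25.9 FPKM with radiation against 27.0, 26.4 and 26.9 FPKM in control (log2 change 0.40 ± 0.19, adjusted p = 0.199). Radiation replicate 3 lay below the control libraries and the others above them. The most negative was that of mt-Atp8, with 1.64, 6.21 and 5.0 FPKM with radiation against 7.22, 6.93 and 2.21 FPKM in control (-0.38 ± 0.46, adjusted p = 0.645). The median over the 16 genes was 0.12, and 0 of the 7 chromosome 1 copies passed.

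With both treatments against control, 5 genes of the copied run rose and 2 other mitochondrial genes fell. Of 16 genes, 5 rose, where 11.9% of all genes tested rose. The 2 that fell (12.5%) are close to the share of all genes that fell, 10% (21.9% changed in all). mt-Nd3 changed by 1.68 ± 0.26 (adjusted p = 0.000904), mt-Atp6 by 1.11 ± 0.17 (adjusted p = 0.000775), mt-Co3 by 0.99 ± 0.19 (adjusted p = 0.00321), mt-Nd4l by 0.94 ± 0.31 (adjusted p = 0.0440) and mt-Co2 by 0.53 ± 0.15 (adjusted p = 0.0197), all by edgeR on the log2 scale. mt-Atp8 (1.22 ± 0.41, adjusted p = 0.0507) did not pass. mt-Rnr1, the 12S rRNA of the small ribosomal subunit, had 163, 180 and 201 FPKM with the combination against 204, 314 and 247 FPKM in control. mt-Nd1, a complex I subunit that borders the ubiquinone site, had 1832, 1990 and 2316 FPKM with the combination against 2565, 3264 and 3078 FPKM in control. The groups did not overlap in either gene, with control replicate 2 the highest library of both. The log2 change was -0.54 ± 0.14 for mt-Rnr1 (adjusted p = 0.0162) and -0.59 ± 0.17 for mt-Nd1 (adjusted p = 0.0293). Without control replicate 2 both missed the threshold, with adjusted p = 0.0760 for mt-Rnr1 and 0.105 for mt-Nd1, and 4 of the 16 genes rose; without combination replicate 2, 3 of the 16 passed, and without combination replicate 1 or control replicate 3, 4 did. mt-Rnr2, the 16S rRNA, averaged 114 ± 4.83 FPKM with the combination and 148 ± 37.4 FPKM in control (-0.42 ± 0.16, adjusted p = 0.0689). All 10 genes outside the copied run had negative changes, with a median of -0.29 against -0.01 over all genes tested. Read in the same libraries, these 10 are not independent results. All 5 tested neutrophil markers and 6 of 8 macrophage markers were also higher with the combination than in control, and their part was not tested.

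Between the combination and Complex 1 without radiation, no mitochondrial gene passed by edgeR, where 9.98% of all genes tested did. An unadjusted p under 0.05 was reached by 5 of the 16 genes and by 25.6% of all genes tested, and DESeq2 called 2, where it called 13.9% of all genes. All 13 protein genes had negative changes, from -0.55 to -0.18 on the log2 scale, with a median of -0.37. mt-Nd1 had 1832, 1990 and 2316 FPKM with the combination against 3492, 2572 and 2818 FPKM with Complex 1 (-0.55 ± 0.17, adjusted p = 0.0616). mt-Nd6, a complex I membrane subunit, had 813, 873 and 970 FPKM with the combination against 1159, 1116 and 1144 FPKM with Complex 1 (-0.38 ± 0.12, adjusted p = 0.0616). In both genes each combination library was below each Complex 1 library. The interaction asks whether the change with the compound differed between irradiated and unirradiated tumours. By edgeR 0 of 13668 genes passed (0% called), 600 (4.39%) had an unadjusted p under 0.05, and DESeq2 called 6 (0.0439%), 0 of them mitochondrial. For the mitochondrial genes, 7 of 16 had an unadjusted p under 0.05, and the smallest adjusted p was 0.997. All 13 protein genes had a negative term, with a median of -0.54. Counts and signs shared by genes of 1 genome in the same libraries are not independent results, here and in the comparison above.

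The tRNA genes were almost without counts. Of 22, 20 had 0 counts in all 12 libraries, which allows up to 3 counts each, and mt-Tc, the tRNA for cysteine, had 1 count, in Complex 1 replicate 2. The exception was mt-Tp, the tRNA for proline, with 184, 209 and 253 counts with the combination, 215, 262 and 234 with radiation, 215, 196 and 190 with Complex 1, and 241, 252 and 219 in control. It lies at 15356 to 15422 on the minus strand, as the last gene before the control region, and its sequence is shown with the anticodon in capitals.
mt-Tp: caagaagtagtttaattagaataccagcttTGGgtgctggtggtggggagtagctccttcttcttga
Its 67 bases gave 187 ± 13.4, 191 ± 14, 179 ± 7.41 and 193 ± 6.92 FPKM in the same order of groups, which overlapped throughout. None of its changes passed: on the log2 scale they lay between -0.13 and 0.04 in the comparisons of groups, with adjusted p-values of at least 0.563.

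Among nuclear genes that serve mitochondrial gene expression, 6 lists were examined. None had a call with Complex 1 against control or with the combination against radiation, comparisons in which 0.812% and 0.651% of all genes tested were called, so that few or no calls are the background for lists of this size. None of the 10 genes of mitochondrial transcription, among them the polymerase Polrmt and the packaging factor Tfam, passed in any comparison. Of 7 tested biogenesis regulators, 4 fell with radiation against control, where 5.86% of all genes tested fell. Myc, a growth regulator, averaged 36.5 ± 3.09 FPKM with radiation and 55.0 ± 3.29 in control (log2 change -0.62 ± 0.11, edgeR adjusted p = 0.00340). Pprc1, a coactivator of the PGC-1 family, averaged 15.4 ± 0.31 and 19.2 ± 1.11 FPKM in the same order (-0.35 ± 0.07, adjusted p = 0.00608). Nrf1 and Gabpa, factors that act on nuclear genes for mitochondrial proteins, were the others (-0.26 ± 0.07 and -0.25 ± 0.08, adjusted p = 0.0282 and 0.0466). The same 4 fell with the combination against control, with changes of -0.26 for Pprc1 to -0.48 for Myc, and Gabpa (-0.33 ± 0.08) and Pprc1 (-0.27 ± 0.07) fell with the combination against Complex 1. Of all genes tested, 10% fell in the first of these comparisons and 9.98% changed in the second. In radiation against control and in the combination against control, 6 of 8 macrophage markers also rose, and their part was not tested. Without control replicate 2, 3 of the 7 fell with radiation and 4 with the combination.

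The calls in the remaining lists are to be read against the 5.86% of all genes that fell with radiation against control, the 10% that fell with the combination against control and the 9.98% that changed with the combination against Complex 1. Of 16 genes that maintain mitochondrial DNA, 3 fell with radiation against control: Atad3a, a membrane ATPase of the nucleoid (-0.27 ± 0.06), Polg, the replicative polymerase (-0.27 ± 0.06), and the nuclease Mgme1 (-0.34 ± 0.09). With the combination Mgme1 (-0.28 ± 0.09) and the ligase Lig3 (-0.20 ± 0.06) fell against control. Against Complex 1, Mgme1 (-0.38 ± 0.09) and the helicase Twnk (-0.41 ± 0.11) fell and the thymidine kinase Tk2 rose (0.25 ± 0.07). Of 29 genes of mitochondrial RNA processing and decay, Pus1, a pseudouridine synthase, fell with radiation (-0.33 ± 0.09, adjusted p = 0.0243) and Grsf1, an RNA granule protein, with the combination (-0.23 ± 0.06, adjusted p = 0.0210), both against control. Of 13 translation factors, Gfm1, an elongation factor, fell with the combination against control (-0.27 ± 0.08, adjusted p = 0.0242). Of 81 tested proteins of the mitochondrial ribosome, Mrpl21 (-0.35 ± 0.08) and Mrps26 (-0.26 ± 0.06) fell with radiation against control, and Mrps34 (0.46 ± 0.12) rose with the combination against Complex 1. Without control replicate 2, 2 maintenance genes, 1 gene of RNA processing and 1 ribosomal protein fell with radiation, and none of these lists had a call with the combination against control. The shares called in the RNA processing, translation and ribosome lists were below those of all genes in each comparison named.

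The counts of called mitochondrial genes also moved with the filter on low values. With all 31727 genes that had a count, edgeR called 8 with Complex 1 against control, where it called 2.53% of all genes, and 2 with radiation against control, where it called 8.48%. It called 14 with the combination against control (11.9% of all genes), 14 against radiation (1.67%) and 10 against Complex 1 (7.2%), and 7 in the interaction (0.514%). The 8 with Complex 1 against control were the 6 genes of the copied run, called higher, and both rRNAs, called lower. With radiation against control mt-Co3 was called higher and mt-Rnr1 lower. Of the 20 settings beside the main one, the rRNA calls in these comparisons and that of mt-Co3 with radiation came from this one alone. In the main fit mt-Co3 and mt-Rnr1 with radiation had adjusted p = 0.199 and 0.247, with overlapping libraries. Without the filter mt-Nd1 had an edgeR adjusted p of 1.35e-12 with the combination against radiation, where the main fit gave 0.207. With the combination against control or radiation, genes called inside the copied run rose and those outside it fell. All calls against Complex 1 and in the interaction were negative. DESeq2 on the filtered genes called 6 with Complex 1 against control (2.39% of all genes) and 10 with the combination against control (23.5%), next to the counts given above.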

How the data were processed

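RNA from 12 CT26 tumour libraries, 3 in each of 4 groups, was analysed. The table deposited by the authors gives raw read counts per gene and library for 55415 entries, with coordinates in mm39. STAR 2.5.3a, HTSeq 2.0.1 and DESeq2 are named in the submitters' processing notes without the step each one did, and the strand setting, filters and treatment of reads with several matches are not stated there. The authors' FPKM values in the same table equal those counts divided by exonic gene length and library total, within 0.005 FPKM of a recomputation, and were used as levels. Totals ran from 15601468 to 19112042 counts. Entries with an identifier but no gene symbol, kept in these totals, held 0.0579% to 0.0706% of them.

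Tests used the counts in R 4.3.3 with edgeR 4.0.16: TMM scaling, genes with at least 1 FPKM in at least 3 of 12 libraries (13668), 1 mean per group, the quasi-likelihood test over all 12 libraries, and Benjamini-Hochberg adjustment over all genes tested with a threshold of 0.05. Adjusted p-values in the text are from edgeR unless another tool is named, and SE is the log2 change over the square root of F. Summed shares were compared by exact two-sided permutation tests. On simulated counts for Complex 1 against control (13668 genes), the test called 84% of 100 genes changed 2-fold and 53% of 100 changed 1.5-fold, with 7 false calls. Alternatives were DESeq2 1.42.0, limma 3.58.1 on log2(FPKM + 0.1) and log2(FPKM + 1), other scalings, no filter, only the groups compared, the replicate number as a block, and leaving out each library. Shared sequence was counted as 31-base sequences in GENCODE M21 transcripts (GRCm38), on either strand. All protein genes and rRNAs, each tRNA with a count, the 10 nuclear copies with most counts, and up to 5 called genes per nuclear list with the smallest p were named. The members and lists were chosen with earlier results of these data known.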

Additional observations from a re-analysis of the deposited data

How the results depend on the processing

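Across mitochondrial genes, comparisons and alternatives, 1777 log2 changes kept their side of the threshold and 74 passed under the alternative alone. A further 53 no longer passed, and 0 called ones changed sign. Most of these changes were not called in the main fit, so the tally says little about how stable the calls were. The changes called there passed under 6 (mt-Nd4l with Complex 1 against control) to 20 (mt-Atp6 with the combination against control) of the 20 alternatives. With the combination against radiation, mt-Nd3 passed under 11 and mt-Atp6 under 16. Without the filter on low values, the called mitochondrial genes, rising or falling, numbered 8 with Complex 1 against control and 2 with radiation against control. With the combination they numbered 14 against control, 14 against radiation and 10 against Complex 1, and in the interaction 7. DESeq2 called 6 with the combination against radiation and 2 with the combination against Complex 1, and a fit of only the groups compared called 2 in the last of these. The cause of these differences was not tested. Leaving out 1 library at a time gave 0 to 6 calls with Complex 1 against control, 0 to 0 with radiation against control, 3 to 9 with the combination against control, 0 to 3 with the combination against radiation, 0 to 2 with the combination against Complex 1 and 0 to 0 in the interaction. Libraries with the same replicate number showed no clear joint deviation (18 pairs, r from -0.20 to 0.16, 4 over 0.1). Of 12 libraries, 4 correlated best with their own number. Deviations from means of 3 libraries cannot exclude a pairing by number. With the replicate number as a block, 1 gene passed with the combination against radiation and 1 with the combination against Complex 1, and no other count moved by over 1.5 times. The share of mitochondrial counts in the copied run kept its direction under all settings except with radiation against control, where the log2 ratio was between -0.07 and 0.02. The summed share of all mitochondrial genes kept its lower value with the combination against each other group under all settings, while near-zero differences changed sign with 1 library left out (Complex 1 against control from -0.16 to 0.04, radiation against control from -0.07 to 0.21). Over all genes tested, calls with Complex 1 against control numbered 111, with 326 by DESeq2, 45 with only the groups compared and 803 without the filter; for the combination against radiation they numbered 89, 185, 69 and 529 in that order. The interaction could not be fitted with only the groups compared. Another scaling moved the median log2 change of all genes by at most 0.05. With 3 libraries a group, exact permutation p-values cannot go below 0.1. Counts of under 100 per library limit mt-Nd3, mt-Nd4l and mt-Atp8. Near-identical sequence limits every gene of the copied run that was aligned to a copy, whatever the depth. For mt-Atp8 beyond its overlap with mt-Atp6 no copy was aligned.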
